A study of Caenorhabditis elegans with 66 samples.

Results

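Wild-type Caenorhabditis elegans (strain N2) sampled at 48 h, as L4 larvae, were compared with wild-type animals sampled at 72 h, as gravid adults, in 18 small RNA libraries of a series of 66 samples. The libraries were those labelled N2 at 48 h or 72 h in 3 sets, called here set A and set B (the sets labelled LKBsetA and LKBsetB) and set C (labelled RT), with 3 libraries of each age in each set. All 18 came from whole animals that carried no mutation or transgene named in the labels and for which no treatment is named. The file headers mark replicate 3 among the 72 h libraries of set B as resequenced. The labels do not say whether the replicates came from separate cultures, so the p-values measure the spread between these libraries, which may be technical. Each comparison was made within a set, and every piRNA of the deposited table was considered, 17114 in all.

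piRNAs of C. elegans, the 21U-RNAs, are germline small RNAs of 21 bases that usually begin with U and are bound by the Argonaute protein PRG-1. Each is made from its own short transcript, and most of their loci lie in a pair of broad clusters on chromosome IV. A hermaphrodite makes sperm during the L4 stage and oocytes as an adult, so the ages compared differ in the germ cells that a whole animal contains. The series title names piRNAs that differ between the sexes as its subject, and the wild-type comparison gives which piRNAs differ between these stages. In RNA from whole animals, fewer germ cells and less piRNA per germ cell cannot be told apart. The table holds piRNAs alone, so the age labels could not be checked against protein-coding marker genes.

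The libraries of the 48 h animals held 353965 to 1168689 piRNA counts and those of the 72 h animals 318641 to 977482, apart from replicate 3 of set C at 72 h, which held 9912. That weak library stood apart in other ways. Of its counts, 35.6% came from other chromosomes than IV, against 0.731% to 1.66% in the other 17 libraries, and 5.28% came from 21ur-10492 on chromosome II alone, against 0.0406% to 0.228%. Its Spearman correlations with the other libraries (log2 of CPM plus 5, with CPM the piRNA count per 1e6 piRNA counts of a library) were 0.38 to 0.47. Within sets A and B these correlations were 0.92 to 0.93 between 48 h libraries, 0.88 to 0.91 between 72 h libraries and 0.72 to 0.79 across the ages. Within set C without the weak library they were 0.85 to 0.88 at 48 h, 0.85 at 72 h and 0.75 to 0.83 across the ages. The ages were thus less apart from the replicates in set C. Results that rest on set C are given with and without the weak library. Of the 17114 piRNAs, 2122 had no count in any of the 18 libraries, 7623 had too few to be tested and 7369 were tested. The tested piRNAs held 98.5% of all counts.

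The sequences of the piRNAs on which the results turn are shown here 5′ to 3′ as deposited, as DNA letters with bases 2 to 8, the part that corresponds to a seed, in capitals. Positions are 1-based on WBcel235. The first 6 are the most abundant piRNAs called higher at 72 h, at least 2-fold and without overlap between ages (rule given below). Their loci are chrIV:15257820-15257840 (minus strand), chrIV:13700230-13700250 (minus), chrIV:16041087-16041107 (plus), chrIV:16629788-16629808 (plus), chrIV:16629789-16629809 (plus) and chrIV:14126024-14126044 (minus), and none overlaps an annotated gene.
21ur-5107: tCCGAATTccgaattgaaact
21ur-3421: tCATCCTGattttgaactaca
21ur-5504: tCTTGAACggctaggatcact
21ur-2235: tTAGATAGagactgcatgatt
novel_21ur-1336: tAGATAGAgactgcatgattt
21ur-4375: tAGGATCTattttaatttttt

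The next 6 are the most abundant piRNAs called lower at 72 h by the same rule. They lie at chrIV:16374700-16374720 (plus), chrIV:16575752-16575772 (minus, in an intron of Y51H4A.8), chrIV:14343120-14343140 (plus, antisense to an intron of srlf-28), chrIV:15705221-15705241 (minus, antisense to an intron of Y105C5A.15), chrIV:15631002-15631022 (minus) and chrIV:15134497-15134517 (minus), the others outside annotated genes.
21ur-6881: tTGATCTGatagaatgtcatc
21ur-669: tTGTCGATcttttgaattctt
21ur-1326: tACGACTGtgctttgacaagg
21ur-7999: tTCTGTGAaatttcgattatc
21ur-3822: tAATAAATcttttggaccagt
21ur-137: tCCAGTCTctaagaacagttt

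Further sequences are shown because they recur below. The first is a stack of overlapping piRNAs on the minus strand of chromosome IV whose 5′ ends lie 1 base apart, at chrIV:15712764-15712784, chrIV:15712763-15712783 and chrIV:15712762-15712782, antisense to an intron of Y105C5A.15. The second is a pair of piRNAs from other chromosomes, at chrII:2094693-2094713 (plus) and chrX:14437058-14437078 (minus, antisense to an exon of the pseudogene WBGene00044217).
novel_21ur-1189: tTTATTAGatgagtgtgtcag
21ur-6888: tTATTAGAtgagtgtgtcagt
21ur-6831: tATTAGATgagtgtgtcagtt
novel_21ur-0238: tTTAATAGttttcggatctgt
novel_21ur-1741: tTTCTTTGcaccgactcggct

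Between 48 h and 72 h most of the tested piRNAs changed. With edgeR's TMM scaling about as many were called upward as downward, a balance that depends on the scaling, as given below. In the mean of the 3 within-set differences, 6274 of 7369 piRNAs were called (85.1%) by edgeR's quasi-likelihood test at a Benjamini-Hochberg adjusted p below 0.05. Of these, 3120 were higher at 72 h (42.3% of those tested) and 3154 were lower (42.8%). At least 2-fold changes made up most of the calls, with 2761 higher (37.5%) and 2952 lower (40.1%). The median log2 fold change was 1.70 among the higher and -2.51 among the lower piRNAs. A log2 fold change between -1 and 1 was found for 1557 piRNAs, 21.1% of those tested, and the distribution had a mode on each side of 0 with a trough between. Changes of over 3 on the log2 scale were more frequent downward (702 piRNAs) than upward (107).

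Taken set by set, 5795 piRNAs were called in set A (78.6%; 2796 or 37.9% higher and 2999 or 40.7% lower), 5733 in set B (77.8%; 2824 or 38.3% and 2909 or 39.5%) and 3179 in set C (43.1%; 1168 or 15.9% and 2011 or 27.3%). Without the weak library the filter kept 8052 piRNAs, of which 6862 were called in the mean of the sets (85.2%; 3406 or 42.3% and 3456 or 42.9%) and 3878 in set C (48.2%; 1657 or 20.6% and 2221 or 27.6%). In the same direction in all 3 sets, 2992 piRNAs were called (40.6%; 1088 or 14.8% higher and 1904 or 25.8% lower), and 3605 without the weak library (44.8%; 1526 or 19.0% and 2079 or 25.8%). With each set fitted alone, sets A and B, which share no library, called 85.4% and 86.3% of the piRNAs tested in each and had 4656 called in both, and all 4656 changed in the same direction. Across the 5635 piRNAs tested in both fits the log2 fold changes had a Pearson r of 0.96, given as a description since piRNAs are not independent replicates. Set C fitted alone without the weak library, which called 62.9%, shared 2567 calls with set A and 2540 with set B, and each of these also had the same direction.

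**Figure D1:**
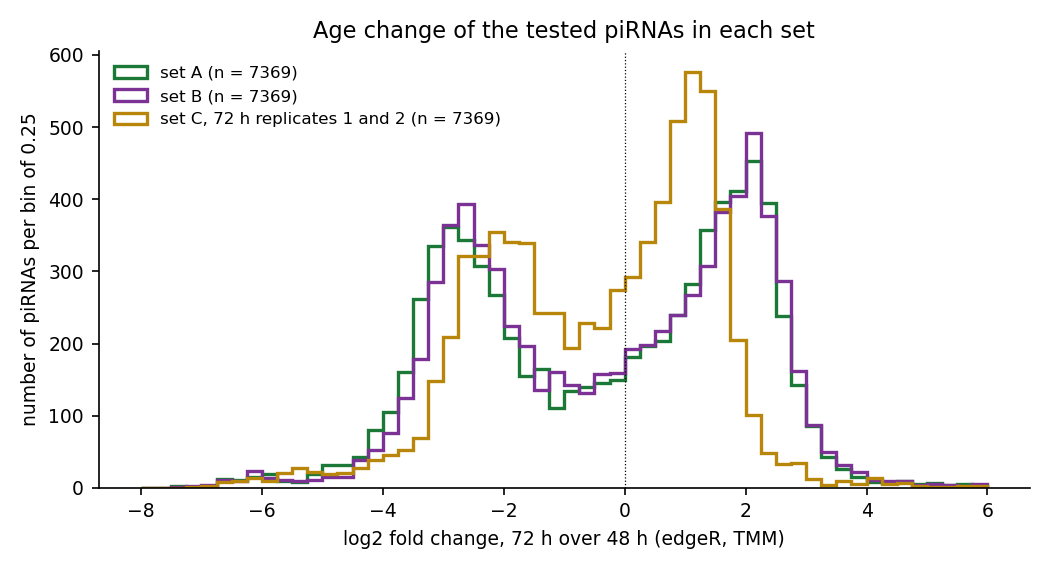
Number of piRNAs (vertical axis, per bin of 0.25) at each log2 fold change of 72 h over 48 h (horizontal axis, edgeR with TMM scaling) in set A, set B and set C, the last without its weak 72 h library. Each set has a mode below 0 and a mode above 0, and the modes of set C lie closer to 0 than those of sets A and B.

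The centre of these changes depends on the scaling. TMM put the median log2 fold change of all tested piRNAs at 0.11, DESeq2's size factors put it at 0.28, the sum of piRNA counts at -0.31 and equal library sizes at -0.75. The balance of directions moved with it. With the sum of counts, 2614 piRNAs (35.5%) were called higher and 3389 (46.0%) lower. Equal library sizes leave each library's total in the comparison, so the low total of the weak library enters as well. Under them 748 piRNAs (10.2%) were called higher and 3337 (45.3%) lower, 4085 in all (55.4%). Of the calls with TMM, 3900 kept their direction while 0 were called in the opposite direction. Without the weak library, equal library sizes called 5896 of 8052, with 2144 higher, 3752 lower and a median of -0.55. In set C, DESeq2's size factors gave 2043 (27.7%) higher and 1552 (21.1%) lower, 3595 in all (48.8%), against 1168 and 2011 with TMM. Unless another scaling is named, the fold changes below are those of TMM, with no median subtracted, so their direction holds relative to that scaling. Levels are given as CPM of the library's piRNA counts, with no TMM factor. A CPM ratio therefore runs lower than the TMM fold change, by an amount that differs between sets. With the weak library kept, the medians under TMM and under the sum of counts were 0.07 and -0.43 in set A. They were 0.12 and -0.50 in set B, and 0.0 and -0.11 in set C.

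Among the piRNAs higher at 72 h, 1244 were also at least 2-fold up with every 72 h library above every 48 h library of its set (the weak library left out). Without regard to size or call, 1259 of the tested piRNAs (17.1%) showed no overlap in this direction. 21ur-5504 had the largest change of the 6 most abundant. Its level was 2155, 2293 and 2203 CPM in set A at 48 h and 13561, 12990 and 11887 at 72 h. In set B it was 2867, 1551 and 2049 CPM at 48 h and 12178, 15224 and 14857 at 72 h. In set C it was 1470, 1266 and 856 CPM at 48 h and 3785, 1836 and 0 at 72 h, the last being the weak library. The ages did not overlap in sets A and B, and in set C they did not overlap once the weak library was left out, with a smaller rise. The log2 fold change was 2.43 with a standard error (SE) of 0.36 (edgeR, adjusted p = 1.17e-07), made up of 3.03 in set A, 3.35 in set B and 0.91 in set C (adjusted p = 0.205), or 1.37 in set C without the weak library (adjusted p = 0.00014).

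21ur-2235 and novel_21ur-1336, whose 5′ ends lie 1 base apart, gave nearly the same counts, 62200 and 61896 over the 18 libraries. The file does not state how a read that fits both was counted, so they are treated as a single observation. 21ur-2235 stood at 2277, 3189 and 2241 CPM in set A at 48 h and at 8914, 8495 and 10602 at 72 h. In set B the values were 3389, 2128 and 2670 CPM at 48 h and 9532, 10046 and 12674 at 72 h. Set C was far lower at both ages, with 100.0, 147 and 158 CPM at 48 h and 254, 226 and 0 at 72 h. The rise was 1.92 ± 0.29 (log2, SE; edgeR, adjusted p = 2.19e-07) and its direction was shared by the sets, although set C alone passed the test only without the weak library (0.97, adjusted p = 0.00855).

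The other 3 abundant piRNAs of this direction behaved alike in sets A and B. 21ur-5107, the most abundant, ranged from 6272 to 8910 CPM at 48 h and from 10290 to 16350 CPM at 72 h in sets A and B, and from 1644 to 2128 and from 2649 to 3368 CPM in set C without the weak library. Its log2 fold change was 1.03 ± 0.31 (SE; edgeR, adjusted p = 0.0025), which is small beside a median of 1.70 among the piRNAs called higher. 21ur-3421 rose from 3835 to 6051 CPM at 48 h to 9458 to 13572 CPM at 72 h in sets A and B (1.25 ± 0.32, adjusted p = 0.000527). 21ur-4375 rose from 2048 to 4856 CPM to 7486 to 9950 CPM in the same sets (1.69 ± 0.32, adjusted p = 9.42e-06). In set C these 3 passed the test only without the weak library, where their log2 fold changes were 0.87, 0.72 and 1.26.

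Among the piRNAs lower at 72 h, 2238 were at least 2-fold down with every 72 h library below every 48 h library of its set, and 2385 of the tested piRNAs (32.4%) showed no overlap in this direction. The most abundant was 21ur-6881. Its level was 4906, 4602 and 4738 CPM in set A at 48 h and 430, 291 and 688 at 72 h. In set B it was 5385, 6634 and 7833 CPM at 48 h and 553, 380 and 884 at 72 h, and in set C 2437, 5121 and 4136 CPM at 48 h and 408, 380 and 303 at 72 h. The highest 72 h level lay below the lowest 48 h level, and the weak library, with 3 counts of this piRNA, lay with the other 72 h libraries. The log2 fold change was -3.02 ± 0.29 (SE; edgeR, adjusted p = 8.08e-12), with -2.86, -2.83 and -3.37 in sets A, B and C.

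The next 5 by abundance fell too, and 4 of them had changes of like size in every set. 21ur-669 ranged from 2541 to 5443 CPM over the 9 libraries at 48 h and from 196 to 503 CPM over the 8 at 72 h without the weak one (-3.12, -2.58 and -3.30 in sets A, B and C; adjusted p = 3.17e-12 for their mean). 21ur-7999 ranged from 2046 to 4081 CPM and from 160 to 436 CPM (-2.92 ± 0.27), 21ur-3822 from 1151 to 3508 CPM and from 146 to 310 CPM (-3.22 ± 0.26), and 21ur-137 from 1534 to 4582 CPM and from 164 to 701 CPM (-2.53 ± 0.24). The weak library had 1816 CPM of 21ur-137 (18 counts), within the 48 h range of sets A and B. 21ur-1326 was less even. It fell from 1421 to 2138 CPM to 398 to 1045 CPM in sets A and B, while set C had 2211, 8621 and 5368 CPM at 48 h and 680, 1644 and 2119 at 72 h. Its log2 fold change was -1.56 ± 0.28 (adjusted p = 4.43e-06), and set B alone did not pass the test (-0.95, adjusted p = 0.0659).

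**Figure D2:**
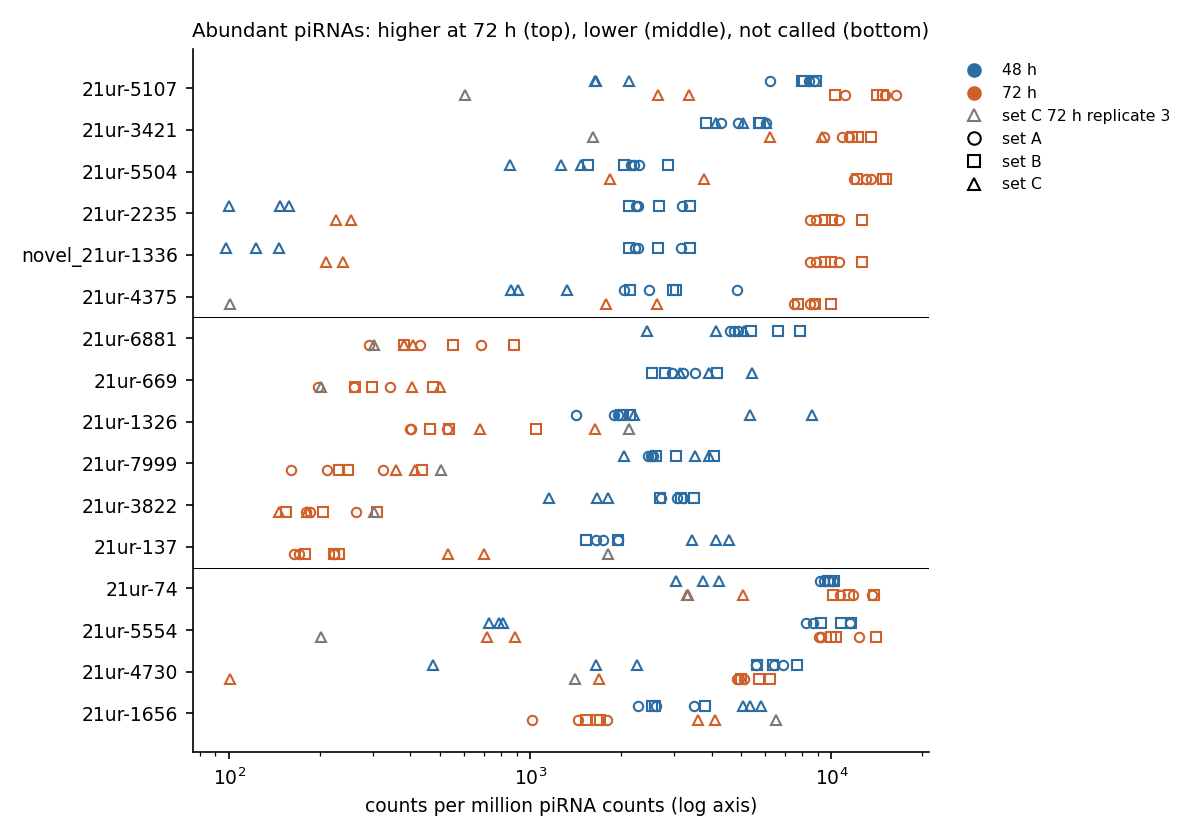
Level of 16 abundant piRNAs in each of the 18 libraries, in CPM of the piRNA counts on a log axis, with a symbol per set and a colour per age, and the weak library (set C, 72 h, replicate 3) in grey. Values of 0 are not drawn. In the top block the 72 h points of a set lie to the right of its 48 h points, apart from those of the weak library. In the middle block the 72 h points lie to the left, and in the bottom block they overlap or differ by under 1.5-fold in the fitted change.

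The largest changes among piRNAs of at least 50 CPM at the higher age included a pair off chromosome IV. novel_21ur-0238, on chromosome II, had 0 to 11.3 CPM over the 9 libraries at 48 h and 95.1 to 251 CPM over the 6 libraries of sets A and B at 72 h. In set C it had 0, 0 and 2.83 CPM at 48 h and 5.41, 28.2 and 101 CPM at 72 h, the last being 1 count in the weak library. Its log2 fold change was 4.93 ± 0.55 (SE; edgeR, adjusted p = 6.88e-09). novel_21ur-1741, on the X chromosome, had 0 to 9.51 CPM at 48 h and 27.0 to 120 CPM at 72 h without the weak library, in which it had no count (4.29 ± 0.33; adjusted p = 5.95e-14). Both were near the limit of detection at 48 h and present in every full-depth adult library.

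21ur-6888, the middle member of the stack printed above, had 17.1 to 36.2 CPM in sets A and B at 48 h and 113 to 166 CPM at 72 h, a log2 fold change of 3.20 ± 0.35 in set A and 3.05 ± 0.34 in set B. In set C it had no count at 48 h and 3 counts in all at 72 h, so no fold is given there. Its neighbours 21ur-6831 and novel_21ur-1189 had means over all libraries of 17.1 and 6.17 CPM at 48 h. At 72 h these means were 72.7 and 34.0 CPM. Each member was thus higher at 72 h, but overlapping piRNAs may share reads, so the stack is treated as a single observation.

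In the other direction, 21ur-6420 (chrIV:16473712-16473732, minus strand) had 310 to 2063 CPM at 48 h and 19.4 to 42.8 CPM at 72 h without the weak library (-4.81 ± 0.31; adjusted p = 8.07e-15). 21ur-7404 (chrIV:16732651-16732671, plus) had 46.4 to 111 CPM at 48 h and 0 to 9.99 CPM at 72 h in sets A and B (-4.21 ± 0.59 and -3.71 ± 0.53). In set C it went from 28 counts at 48 h to 0 at 72 h, at least 6.30-fold lower against a floor of 3 counts over the group. 21ur-5038 (chrIV:15657510-15657530, minus) had its highest levels in set C, with 366, 387 and 475 CPM at 48 h and 58.1, 53.4 and 101 CPM at 72 h there (-2.71 ± 0.39). In sets A and B it had 9.41 to 19.2 CPM at 48 h and a single count at 72 h, and in set B, with 0 counts, it was at least 14.6-fold lower against the same floor.

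The most abundant piRNAs that were not called and changed less than 1.5-fold were 21ur-74, 21ur-5554, 21ur-4730 and 21ur-1656. 21ur-74 had 9187 to 10181 CPM at 48 h and 10113 to 13827 CPM at 72 h in sets A and B, and 3054 to 4217 and 3322 to 5065 CPM in set C (0.57 ± 0.29; edgeR, adjusted p = 0.0607). 21ur-5554 had 8250 to 11614 CPM and 9099 to 14061 CPM in sets A and B, and 719 to 888 CPM over both ages of set C without the weak library (0.41 ± 0.29; adjusted p = 0.183). 21ur-4730 had 5633 to 7669 CPM at 48 h and 4872 to 6260 CPM at 72 h in sets A and B, while set C ran from 474 to 2256 and from 100.4 to 1689 CPM (0.01 ± 0.33; adjusted p = 0.973). 21ur-1656 had 2271 to 3814 CPM at 48 h and 1013 to 1795 CPM at 72 h in sets A and B (-0.38 ± 0.24, edgeR, adjusted p = 0.146). In set C it had 5093 to 5840 and 3600 to 4113 CPM without the weak library, which had 6558. Its ages did not overlap in any set once that library was left out. The 4 piRNAs were not shown to be steady. Without the weak library 3 of the 4 passed the test with small changes, 21ur-74 (0.64, adjusted p = 0.0001), 21ur-5554 (0.49, adjusted p = 0.00241) and 21ur-1656 (-0.38, adjusted p = 0.021), and 21ur-4730 did not (0.02, adjusted p = 0.971).

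The direction of change varied along the genome. On chromosome IV the large cluster, from 13 Mb to the end, had 2360 of 5511 tested piRNAs higher at 72 h (42.8%) and 44.6% lower, and its median change was 0.01 on the log2 scale. The small cluster, from 4 to 7 Mb, had 356 of 1103 higher (32.3%) and 56.5% lower, with a median of -1.52. Its median was -1.71 in set A, -1.41 in set B and -0.96 in set C, and it was -1.94 with the sum of counts as scaling. Within the small cluster, the piRNAs from 5 Mb had 202 of 646 higher and a median of -1.47, those from 6 Mb had 112 of 358 higher and a median of -1.72, and the 99 from 4 Mb had a median of 0.26 with 42.4% higher and 45.5% lower.

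Along the large cluster the medians were -0.26 from 13 Mb (512 piRNAs), 0.12 from 14 Mb (1671), 0.34 from 15 Mb (1647), -0.26 from 16 Mb (1467) and -2.12 from 17 Mb (214). Most of the piRNAs at the distal end were thus lower at 72 h, with 60 of 214 higher (28.0%) and 61.2% lower. That bin had medians of -2.05, -2.02 and -1.60 in sets A, B and C. The piRNAs of both directions were present in every bin.

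Away from chromosome IV the balance differed, with 361 of 624 tested piRNAs higher at 72 h (57.9%) and 3.85% lower, and a median of 1.23 against 0.11 for all tested. On the X chromosome 58 of 65 were higher (89.2%) and 1 was lower, with a median of 2.16, and 57 were higher and 3 lower in the fit without the weak library. Higher at 72 h were 108 of 172 on chromosome II (62.8%), 67 of 114 on chromosome III (58.8%), 68 of 132 on chromosome I (51.5%) and 60 of 141 on chromosome V (42.6%), with medians of 1.27, 1.20, 1.07 and 0.71. Without the weak library these medians were 1.01, 0.91, 0.89 and 0.44, and the shares called lower went from 5.23% to 9.30% on II, from 5.26% to 13.2% on III, from 2.27% to 8.33% on I and from 3.55% to 17.0% on V. In set C without that library the medians were 0.20, 0.43, 0.29 and -0.03 in the same order, and 1.31 on X. With equal library sizes and the weak library kept, the X chromosome had a median of 1.20, while that of chromosome V turned to -0.17. The weak library, with 35.6% of its counts from these loci, bears on set C, where the median of the loci off chromosome IV was 1.01 with it and 0.34 without it, against 1.39 in set A and 1.25 in set B. Without it, 53.4% were higher and 11.1% lower in the mean of the sets. The values without the weak library cover the loci tested with it, some of which its counts may have helped to admit.

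**Figure D3:**
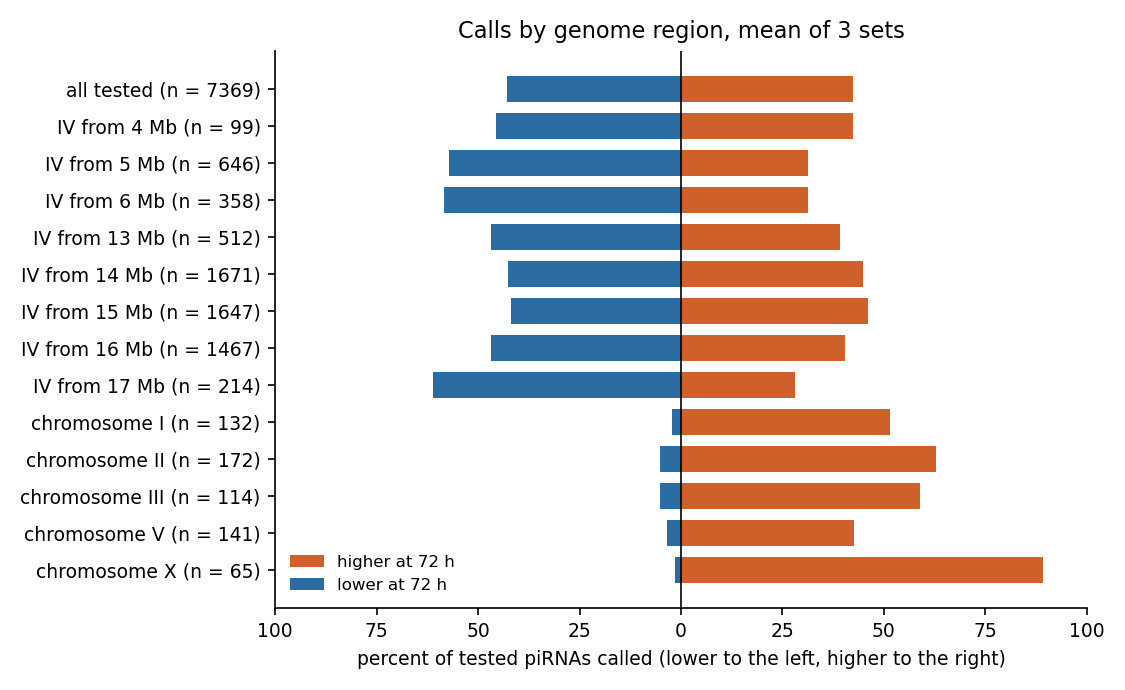
Percent of the tested piRNAs called higher (right) or lower (left) at 72 h in the mean of the 3 sets, for all tested piRNAs, for bins of 1 Mb of chromosome IV and for the other chromosomes, with the number tested beside each name. The bins from 5, 6 and 17 Mb reach further to the left than to the right. On the other chromosomes 1.54% to 5.26% were lower with the weak library, as drawn, against 4.62% to 17.0% of the same loci without it.

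The highest-level piRNA off chromosome IV that rose without overlap was novel_21ur-1738 (chrX:14324495-14324515, minus strand). It lies in the same orientation within the annotated microRNA hairpin cel-mir-8196b, so its counts may include reads of that hairpin. It had 74.7 to 277 CPM at 48 h and 162 to 421 CPM at 72 h in sets A and B (1.24 ± 0.22; edgeR, adjusted p = 3.15e-06), and in set C it did not pass the test (0.60, adjusted p = 0.269). The highest that fell was 21ur-10121 (chrX:7320983-7321003, plus strand), with 35.0 to 162 CPM over the 48 h libraries and 5.31 to 15.7 CPM over the 72 h libraries without the weak one (-2.38 ± 0.29; adjusted p = 1.68e-09). Off chromosome IV, 71 of 624 piRNAs (11.4%) rose and 15 (2.4%) fell at least 2-fold without overlap in any set, against 16.9% and 30.4% of all tested. By this measure a rise was no more frequent there, although rises outnumbered falls, unlike among all tested. The measure asks for separation in every set, which low counts can prevent, and that part was not tested.

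Nearly all tested loci off chromosome IV carry names that begin with novel_21ur, that is 606 of 624, while 652 annotated piRNAs are listed there and 18 had enough counts to be tested. The novel_21ur names off chromosome IV had 354 of 606 higher (58.4%) and 3.63% lower. Those on chromosome IV had 296 of 607 higher (48.8%) and 34.8% lower, and the annotated piRNAs on chromosome IV 2463 of 6138 (40.1%) and 47.6%. The novel_21ur names on chromosome IV that overlap no other listed piRNA had 139 of 254 higher (54.7%) and 31.9% lower. The 18 annotated piRNAs tested off chromosome IV had 7 higher and 2 lower with the weak library (median 0.35), and 6 higher and 8 lower without it (median -0.33). A tilt toward 72 h was seen among the novel_21ur names on chromosome IV as well, less than among those off it. Whether these differences are beyond those of other lists was not tested.

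Loci that overlap an annotated exon had 267 of 434 higher off chromosome IV (61.5%) and 144 of 345 on it (41.7%), beside 94 of 190 (49.5%) and 2615 of 6400 (40.9%) for the loci that overlap none. Exon overlap thus went with a higher share off chromosome IV and hardly with any difference on it. By orientation, 319 of 550 loci only antisense to exons were higher (58.0%) and 11.8% lower. Of the 229 in sense with an exon, 40.2% were higher and 39.3% lower. This split was not made by chromosome. The piRNAs of the plus and minus strands were alike, with 42.7% and 41.9% higher. A first base of T, which 7241 of the tested piRNAs have (98.3%), made little difference (42.4% higher against 39.1% of the 128 others). piRNAs with 10 or more G or C bases had 450 of 895 higher (50.3%) and a median of 0.81, against 40.5% and -0.18 for those with 6 or 7. The median of the former was 0.98 in set A, 0.89 in set B and 0.33 in set C, or 0.04 in set C without the weak library, where piRNAs with up to 5 such bases had 0.0. By abundance, the 1474 most abundant (mean of 141.5 CPM or more) had 51.2% higher and 36.6% lower, and the 1474 least abundant (12.2 CPM or less) 36.3% and 46.6%. The 3 classes between them showed no steady trend, with 42.2%, 42.5% and 39.5% higher and 41.5%, 40.9% and 48.4% lower in order of rising abundance.

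Close neighbours on chromosome IV either moved together or showed almost no relation, depending on whether they overlapped. Consecutive tested piRNAs of the same strand whose starts lay 1 to 20 bases apart overlap in sequence and formed 830 pairs. Both members were called in 667 of these, and in all 667 (100.0%) the direction was the same. The log2 fold changes of the members had a Pearson r of 0.97 across pairs. When the first member was read in set A and the second in set B, which share no library, r was 0.93. For pairs 21 to 100 bases apart the direction was the same in 42 of 86 (48.8%), for 101 to 200 bases in 191 of 381 (50.1%), for 201 to 500 bases in 556 of 1060 (52.5%) and for 501 to 1000 bases in 562 of 1010 (55.6%). Of the called piRNAs on chromosome IV 46.9% were higher. Over the 3289 pairs 21 to 1000 bases apart r was 0.07, and the median absolute difference between neighbours was 1.85 on the log2 scale, against 0.22 for overlapping pairs.

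**Figure D4:**
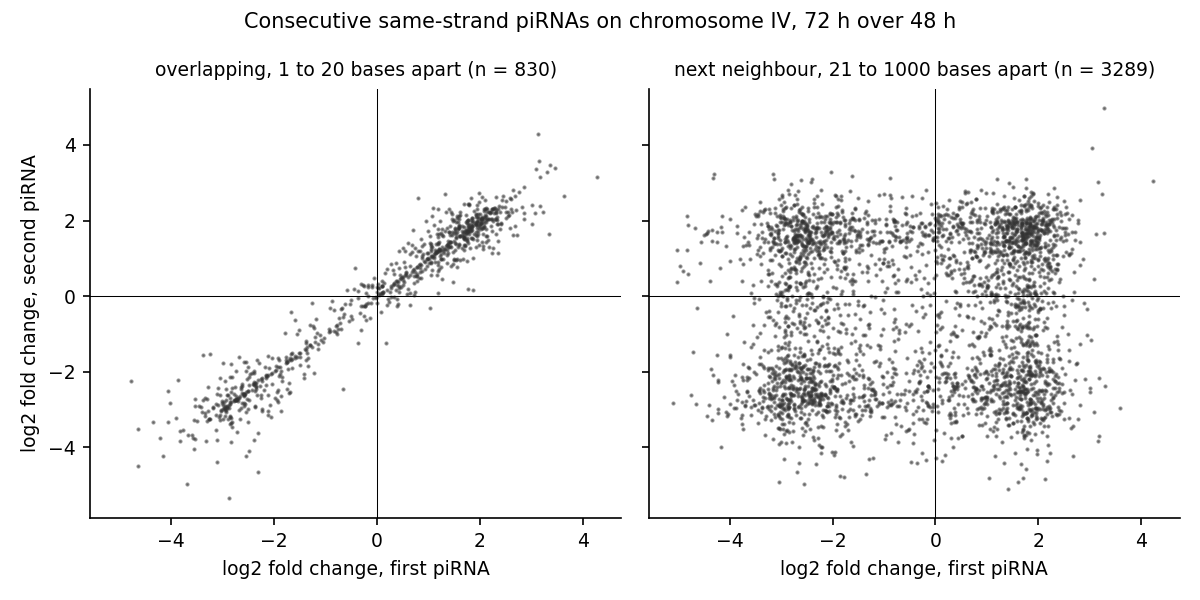
Log2 fold change of 72 h over 48 h of the second piRNA (vertical axis) against that of the first (horizontal axis) for consecutive tested piRNAs on the same strand of chromosome IV, overlapping pairs on the left (830) and pairs 21 to 1000 bases apart on the right (3289). Overlapping pairs follow the diagonal, and the other pairs fill all 4 quadrants.

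Overlapping piRNAs may share reads, as 21ur-2235 and novel_21ur-1336 show. Of the 478 pairs 1 base apart, 129 (27.0%) had total counts within 5% of each other. Counts differed by 10-fold or more in 226 of the 830 overlapping pairs (27.2%). In those unequal pairs all 172 with both members called had the same direction, and r was 0.96. Among the piRNAs printed above, 21ur-5107 was accompanied 1 base upstream by 21ur-8974 (mean of 18.7 CPM at 48 h and 41.9 CPM at 72 h), 21ur-5504 3 bases upstream by 21ur-7602 (9.87 and 22.1 CPM), and 21ur-669 1 base upstream by novel_21ur-1287 (46.3 and 8.11 CPM). A minor partner can hold reads of its abundant neighbour, and that part was not tested.

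Adult libraries were less even in composition. The 100 most abundant piRNAs of a library held 22.9%, 23.1% and 23.1% of its counts in set A at 48 h and 34.7%, 35.3% and 36.0% at 72 h. In set B they held 22.6%, 23.0% and 24.4% at 48 h and 35.2%, 36.5% and 38.2% at 72 h, and in set C 21.9%, 31.4% and 25.1% at 48 h and 30.3%, 35.1% and 35.9% at 72 h. The ages were apart in sets A and B and overlapped in set C. The mean within-set difference was 11.1 percentage points (exact two-sided permutation of the ages within sets, p = 0.0005, adjusted p = 0.00125 over 10 measures, where 0.00025 is the smallest p that the 8000 arrangements allow). The 10 most abundant showed the same, with a difference of 4.23 points (adjusted p = 0.00125, same permutation test). Without the weak library the differences were 10.7 points for the 100 and 3.47 points for the 10 most abundant (adjusted p = 0.0015 for each, same permutation test). The mean share of the 10 in set C was then 5.27% at 48 h and 6.81% at 72 h.

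At equal numbers of counts fewer piRNAs were seen at 72 h. With every library thinned to 9912 counts, 3033, 3173 and 3015 piRNAs were detected in set A at 48 h and 2439, 2422 and 2457 at 72 h, with like values in set B. In set C the numbers were 3096, 2547 and 2886 at 48 h and 2583, 2327 and 2450 at 72 h, which overlap. The mean difference of -563 was past the spread between libraries (exact permutation, adjusted p = 0.00125). It was -563 without the weak library as well (adjusted p = 0.0015, same test). At 318641 counts, without the weak library, the means were 9599 and 8556 in set A, 9533 and 8391 in set B, and 9334 and 8655 in set C.

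The share of the small cluster fell in every set without overlap, from 10.0% to 10.3% at 48 h to 6.54% to 6.85% at 72 h in set A, from 9.65% to 10.2% to 6.50% to 8.99% in set B, and from 9.14% to 9.48% to 6.59% to 7.87% in set C. The mean difference was -2.69 points (exact permutation p = 0.00025, the smallest possible, adjusted p = 0.00125). Without the weak library it was -2.57 points (adjusted p = 0.00125, exact permutation). The share of the large cluster depended on the weak library, which had 52.5% of its counts there. With that library the difference was -1.86 points (adjusted p = 1.0), and without it 2.41 points (exact permutation, adjusted p = 0.00125), with 88.2% to 89.8% at 48 h and 89.6% to 91.7% at 72 h.

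The share from other chromosomes than IV was 0.743% to 1.07% in sets A and B at 48 h and 1.25% to 1.64% at 72 h, and 0.731% to 1.53% and 0.846% to 1.66% in set C without the weak library. The difference was 0.39 points without that library (exact permutation, adjusted p = 0.0344) and 4.20 points with it (adjusted p = 0.0108). In the same way the share from novel_21ur names differed by 0.86 points without it (adjusted p = 0.0221) and by 4.31 points with it (adjusted p = 0.005). With the weak library kept, neither passed once any 1 of the 48 h libraries of set C was left out (adjusted p from 0.447 to 0.458 for each measure). GC content weighted by counts was 0.76 points higher at 72 h with the weak library (adjusted p = 0.0232) and 0.55 points higher without it (adjusted p = 0.0544). It did not pass either without replicate 1 of set A at 72 h (adjusted p = 0.0507), or without replicate 1 or 3 of set C at 48 h (0.11 and 0.077). The plus-strand share of chromosome IV counts differed by -0.48 points with it (adjusted p = 0.301) and by -0.86 points without it (adjusted p = 0.0344, same exact test). Total piRNA counts per library differed by -190178.7 at 72 h on the mean of the sets, which did not pass the test (adjusted p = 0.0888, same exact test). In set C the mean was 528104 at 48 h and 529372 at 72 h without the weak library. The difference passed without replicate 2 of set B at 72 h (adjusted p = 0.0463) or replicate 1 of set C at 72 h (adjusted p = 0.0141). Their level depends on sequencing depth, which is not known here.

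piRNA classes taken from other sets read the age of the full-depth libraries. In set A, the 2505 piRNAs at least 2-fold higher at 48 h in set B held 42.1% to 49.5% of the counts at 48 h and 5.22% to 7.68% at 72 h, while the 2188 higher at 72 h in set B held 24.3% to 31.3% and 70.5% to 72.9%. In set B, the 2718 and 2321 piRNAs of the same classes taken from set A held 45.3% to 51.6% and 21.1% to 28.3% of the counts at 48 h, and 6.70% to 8.57% and 65.8% to 68.7% at 72 h. In set C, the 2366 and 1946 piRNAs found in both sets held 37.3% to 40.1% and 30.6% to 35.7% at 48 h, and 7.10% to 8.37% and 62.3% to 65.9% in the first 2 libraries at 72 h. The weak library had 18.5% and 16.0%, so the adult class made up 46.5% of its counts in both classes, beside 43.7% to 48.9% in set C at 48 h and 88.2% to 90.3% in the other 72 h libraries of set C. By this ratio alone the weak library lay with the 48 h libraries of its set. Its share in either class lay outside the ranges of both ages, so by these shares it matched neither age.

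**Figure D5:**
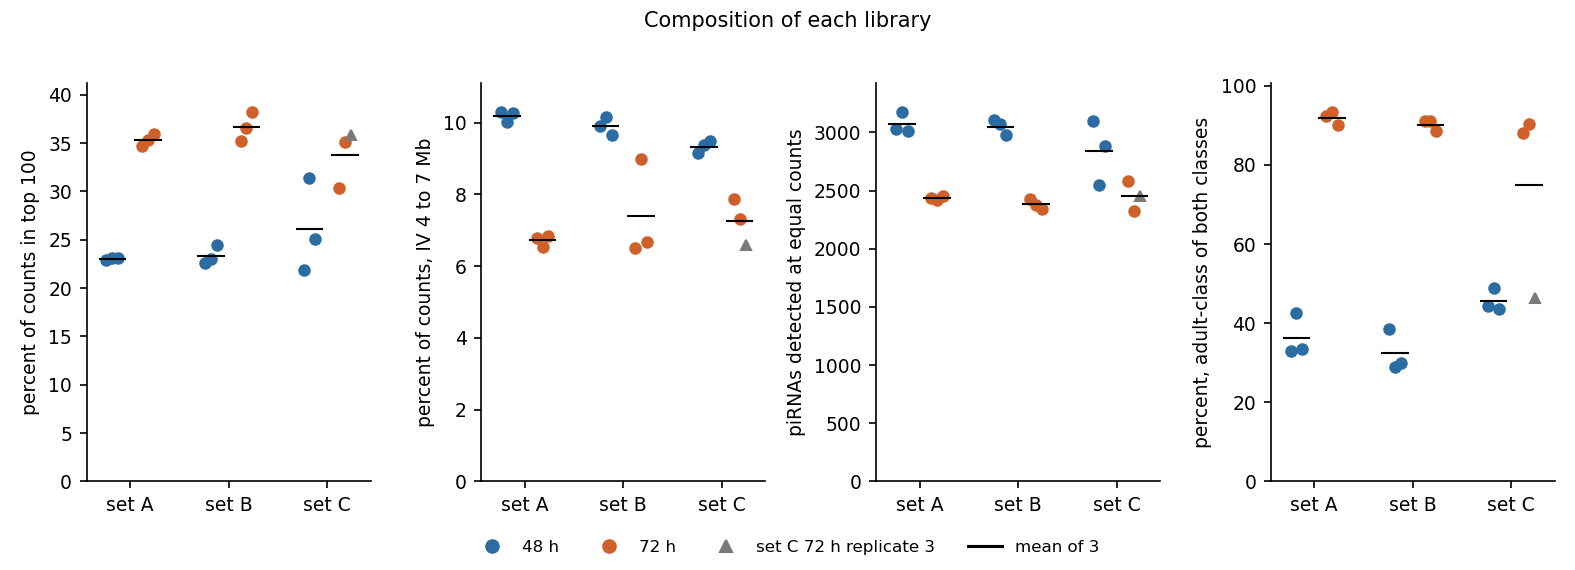
For each library, the percent of counts in its 100 most abundant piRNAs, the percent from chromosome IV 4 to 7 Mb, the number of piRNAs detected at 9912 counts, and the percent of counts in the adult class among counts in both classes, with classes taken from other sets. Bars mark the means of 3 libraries. In the last panel the weak library (grey triangle) lies at 46.5%, with the 48 h libraries of its set, although its share in either class matched neither age.

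The turnover reached the leading piRNAs. Of the 100 most abundant piRNAs at 48 h, 35 were also among the 100 most abundant at 72 h in set A, 36 in set B and 57 in set C, the weak library left out. Between sets A and B the lists shared 88 at 48 h and 90 at 72 h. Set C shared 37 to 42 of 100 with either set at a given age. Of the 88 piRNAs leading at 48 h in sets A and B, 51 were called lower at 72 h and 25 higher, and of the 90 leading at 72 h, 83 were called higher and 0 lower, beside 42.3% higher and 42.8% lower over all tested. Both lists were picked by level at a single age, which weights these directions, so nothing is read from the balance.

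The age changes of set A and set B were not told apart by the test of their difference, with 0 of 7369 piRNAs (0.0%) called by edgeR (174 at an unadjusted p under 0.05) and 0 by DESeq2. Between set C and the mean of sets A and B, 1 piRNA was called (0.0136%), 21ur-7534 (chrIV:13801051-13801071, minus strand), and 138 were called without the weak library and 134 without replicate 1 of set C at 48 h (1.71% of 8052 for the 138), of which 130 (1.61%) had the lower change in set C and 8 (0.0994%) the higher. 21ur-7534 had 8.07 to 28.8 CPM at 48 h and 85.2 to 150 CPM at 72 h in sets A and B. In set C it had 53.0, 87.4 and 62.1 CPM at 48 h and 91.9, 110 and 0 at 72 h, so it began higher there. The difference of the age change was -2.58 ± 0.50 (log2, SE; adjusted p = 0.0421). With the sum of counts or equal library sizes as scaling, the test called 0 piRNAs, with and without the weak library. With limma on the deposited log2 CPM of all 18 libraries, the weak one included, it called 519, of which 481 had the higher change in set C. The limma fit was not run without the weak library. Whether the opposite direction goes with the values or with that library was therefore not tested.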

How the data were processed

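Whole-animal small RNA was treated with a 5′ polyphosphatase before library preparation, per the labels' protocols, so RNAs with 5′ triphosphates could enter the libraries as well. The authors deposited raw counts per piRNA. Trimmomatic 0.39, Bowtie 1.1.1, HTSeq and edgeR, and the build WBcel235, are named in the submitters' processing notes; whether HTSeq counted a read once or for each overlapping piRNA is not given in the sources used here. The authors also deposited batch-corrected log2 CPM, per the file headers, for 13211 piRNAs. That table gave sequences and coordinates and served 1 alternative test. Coordinates of 3900 others came from the WBcel235 annotation. The count table lists piRNAs alone, so library depth is not known. A further 12 columns match no sample and were not used.

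All 18 wild-type libraries were fitted together in edgeR 4.0.16 (R 4.3.3), with 1 coefficient per combination of set and age: TMM scaling, robust quasi-likelihood F test, filterByExpr (minimum count 10, minimum total 15), Benjamini-Hochberg adjustment over all tested piRNAs. SEs were derived from the unshrunken estimate and its F statistic, whereas the printed fold changes are shrunken by edgeR. Library measures were compared by exact two-sided permutation within sets. The procedure was run on simulated counts in which 200 piRNAs changed 4-fold, among 6674 tested. It recovered 99% of the 200, with 11 false calls. Most piRNAs were called in the data, unlike in the simulation, so the simulation does not test the scaling under such a change. Alternatives included DESeq2 1.42.0 and limma 3.58.1.

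piRNAs were named by rule: in each direction, the 6 most abundant that passed the test with a 2-fold change or more and had no overlap between ages in any set (weak library left out), the 3 with the largest change among those of at least 50 CPM, and the most abundant off chromosome IV; the 4 most abundant not called and under 1.5-fold; and any called between sets A and B, of which there were 0. 21ur-7534 and the partners of overlapping piRNAs were named after their values were seen. Members and lists were chosen with earlier results of these data known.

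Same-numbered replicates of the 2 ages deviated together in set A (r of 0.14, 0.23 and 0.13) and set C (0.26, 0.20 and 0.12) but not in set B (0.10, -0.17 and 0.05), so the numbers were not taken as pairs.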

Additional observations from a re-analysis of the deposited data

Results flagged for a closer look

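The age change of 21ur-7534 differed between set C and the mean of sets A and B by -2.58 on the log2 scale, by the test of that difference (edgeR's quasi-likelihood test, adjusted p = 0.0421), with 3.35 in set A, 3.06 in set B and 0.62 in set C. Without the weak library, 138 piRNAs differed in this way at an adjusted p under 0.05, where 1 did with it, and 134 did without replicate 1 of set C at 48 h. The medians of these 138 were 2.59 in set A, 2.63 in set B and 0.94 in set C, and 12 of them had opposite signs in sets C and A. The most abundant was 21ur-5504, with 3.01 in set A, 3.31 in set B and 1.37 in set C (difference -1.79, adjusted p = 0.0068). With the sum of counts or with equal library sizes 0 piRNAs were called with the weak library left out. The library names of set C begin with another year than those of sets A and B, per the labels, and that year and the set cannot be told apart.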

How the results depend on the processing

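Counts of calls are of edgeR at an adjusted p under 0.05. With equal library sizes they were 4085 in the mean of the sets, 3184 in set A, 2970 in set B, 1845 in set C and 1746 in the same direction in all sets. With equal library sizes and without the weak library they were 5896 in the mean of the sets, 1957 in set C and 1821 in all sets. With a mean of 10 counts demanded in every group, which tests fewer piRNAs, they were 2010, 1775, 1745, 737 and 711, and 21ur-4730 then had a log2 fold change of -0.69. Set C fitted alone gave 1440 and all sets 1371; limma on the deposited log2 CPM gave 1391 and 1109. The difference between set C and the mean of sets A and B, 1 call above, came to 0 with DESeq2's size factors, DESeq2, TMMwsp, the sum of counts and equal library sizes, to 34 without the filter, to 126 with all 54 libraries and to 519 with limma. The limma calls ran the other way, with 481 higher and 38 lower in set C and a median difference of 0.98 over all 13211 piRNAs, against 8 higher and 130 lower among the 138 of edgeR without the weak library. The limma fit kept the weak library, so these fits differ in libraries as well as in values.

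Leaving out 1 library at a time, calls ran from 6391 to 6862 in the mean of the sets, from 5431 to 6402 in set A, from 5463 to 6300 in set B, from 1997 to 3878 in set C (the lowest without 72 h replicate 1, the highest without replicate 3), from 0 to 138 for set C against the others and from 1837 to 3605 for all sets. Measures of composition ran from -254159 to -132461 for total counts, from -4.02 to 2.41 points for the large cluster, from 0.39 to 6.17 for other chromosomes, from 0.86 to 6.13 for novel_21ur names, from -0.86 to -0.27 for the plus strand and from 0.55 to 0.93 for GC content. Sets A and B alone gave 2.69 points for the large cluster, and annotated names alone 1.38 points for other chromosomes (adjusted p = 0.75, exact permutation).

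With replicate number as a block within sets, calls were 6243 in the mean of the sets and 28 for set C against the others, and total counts, at -190179, passed the test (sign flips of same-numbered pairs, exact, adjusted p = 0.0293). Every library of sets A and C, but not of set B, correlated best with its own number. Of the alternatives for single named piRNAs, 717 kept direction and side of the threshold, 12 lost the call, 13 gained it and 1, given above, reversed. Unless named here, the cause of a change was not tested. Alternatives on the upstream motif were not run, since no genome sequence was used here. Low-count piRNAs are limited by depth, in set C most.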

Other observations

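Of the piRNAs seen at a single age, few had enough counts to be tested. No count in any of the 9 libraries at 48 h was found for 549 piRNAs that had counts at 72 h, of which 4 were tested, and no count in any library at 72 h for 1567 piRNAs, of which 1 was tested. The highest of the first kind was novel_21ur-0558, with 155 counts at 72 h in all, and of the second 21ur-6414, with 104 counts at 48 h. The remainder of both kinds had too few counts for a test, and at such counts absence at an age is not detectable.

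Some piRNAs differed between sets at both ages. At least 8-fold lower mean CPM in set C than in sets A and B at both ages, with 50 CPM or more in the latter, was found for 62 piRNAs, and at least 8-fold higher for 40, the weak library left out. All of these lie on chromosome IV. 21ur-5622 (chrIV:6281641-6281661, plus strand) had 871 to 1300 CPM at 48 h and 1766 to 3968 CPM at 72 h in sets A and B, and 18.1 to 40.0 and 23.0 to 40.8 CPM in set C. 21ur-2637 had 36.3 to 89.4 CPM at 48 h and 119 to 282 CPM at 72 h in sets A and B and no count in the 5 libraries of set C. 21ur-3195 went the other way, with 762 to 834 CPM in set C at 48 h against 15.0 to 46.9 CPM in sets A and B. These were chosen after their values were seen.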
